A study of Mus musculus with 8 samples.

Results

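The genes described here are the guanylin signalling chain and the transporters it acts on or works beside in the gut lining. They are the 9 genes of the deposited count table called Guca2a, Guca2b, Gucy2c, Prkg2, Cftr, Slc9a3, Slc26a3, Slc26a6 and Atp1b1, of 55421 genes in all. Each was present once in the table and each entered the test. Total RNA of small intestine was sequenced from wild-type mice (Mus musculus; the strain and age are not stated in the labels used here) that had breathed 7% oxygen for 7 days. The 4 Hypoxia samples had this exposure alone, and the 4 Hypoxia+Nitrate samples came from mice with the same exposure that were also given 4 mM nitrate. Both groups were therefore hypoxic, and samples at normal oxygen were not analysed here. Since nothing in the labels makes each sample a separate animal, p-values here reflect only the spread among these samples, which may be technical.

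Guanylin (Guca2a) and uroguanylin (Guca2b) are small peptides that intestinal epithelial cells release into the lumen, and both bind guanylate cyclase C (Gucy2c), a receptor of the apical membrane that makes cyclic GMP. Cyclic GMP activates the membrane-anchored kinase cGMP-dependent protein kinase II (Prkg2), which opens the chloride channel CFTR (Cftr) and inhibits the sodium-proton exchanger NHE3 (Slc9a3), so that salt and water move towards the lumen. The chloride-bicarbonate exchangers DRA (Slc26a3) and PAT-1 (Slc26a6) work beside them, and the basolateral sodium pump, of which Atp1b1 is the beta 1 subunit, keeps up the sodium gradient.

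The groups differed in more than these genes. Total counts ran from 5345377 to 21835865 in Hypoxia and from 8662279 to 63943036 in Hypoxia+Nitrate, and counts of nuclear protein-coding genes from 2608226 to 3489585 and from 5004491 to 15891314. A background per kb of exon was taken in each library from 1469 receptor genes for odorants, pheromones and trace amines, which gut is assumed not to express. It made up 39.1% to 63.7% of the nuclear protein-coding counts of the Hypoxia libraries and 2.74% to 23.2% of those of Hypoxia+Nitrate. All 8 markers of epithelium passed the test as higher in Hypoxia+Nitrate; their summed CPM (counts scaled to a common library size, with TMM factors) was 39.2 to 216 in Hypoxia and 397 to 6932 in Hypoxia+Nitrate. The 8 enterocyte markers, all of them also called higher, summed to 49.0 to 514 and to 761 to 32170 CPM. Of the other lists, 3 of 5 goblet cell, 4 of 5 Paneth cell, 5 of 5 smooth muscle, 3 of 6 immune, 1 of 5 fibroblast and 1 of 4 enteric neuron markers were called higher. Of the endothelial markers 1 of 4 (Kdr) was called lower, and no tuft cell, enteroendocrine, pancreatic or red cell marker was called. Over all genes tested 11.7% were called higher and 12.7% lower, the shares beside which these counts are to be read. No marker was at 0 throughout a group. Mitochondrially encoded genes took 0.582% to 1.40% of counts in Hypoxia libraries and 7.31% to 64.9% in Hypoxia+Nitrate, highest in replicates 1 and 4, the libraries in which Guca2a, Guca2b, Gucy2c and Atp1b1 were highest. In bulk tissue, fewer cells of a type and less RNA per cell cannot be told apart. The part of the background and of the epithelial content in the results below was not tested, except where a value is given.

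Of the 9 genes, 5 passed as higher in Hypoxia+Nitrate: both peptides, Prkg2, Slc26a3 and Atp1b1 (edgeR quasi-likelihood test, Benjamini-Hochberg adjusted p under 0.05 over 35431 genes). Gucy2c, Cftr, Slc9a3 and Slc26a6 did not pass in either direction; at an unadjusted p under 0.05, Slc9a3 was the only one of them, as lower. Over all genes tested 24.4% passed, 11.7% as higher and 12.7% as lower. The median log2 fold change of the 9 genes was 1.51, beside −0.58 for all genes tested. CPM of the groups did not overlap for the same 5 genes and, in the opposite direction, for Slc9a3; over all genes tested 12.0% were higher and 28.8% lower without overlap (40.8% in either direction). With libraries scaled instead to their nuclear protein-coding counts, an alternative chosen after seeing the data, edgeR called Guca2a, Guca2b and Atp1b1 as higher and Cftr and Slc9a3 as lower, where 24.6% of 20463 protein-coding genes passed. On that scale the groups did not overlap for the same 3 genes (higher; 6.03% of protein-coding genes) and the same 2 (lower; 40.3%).

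**Figure D1:**
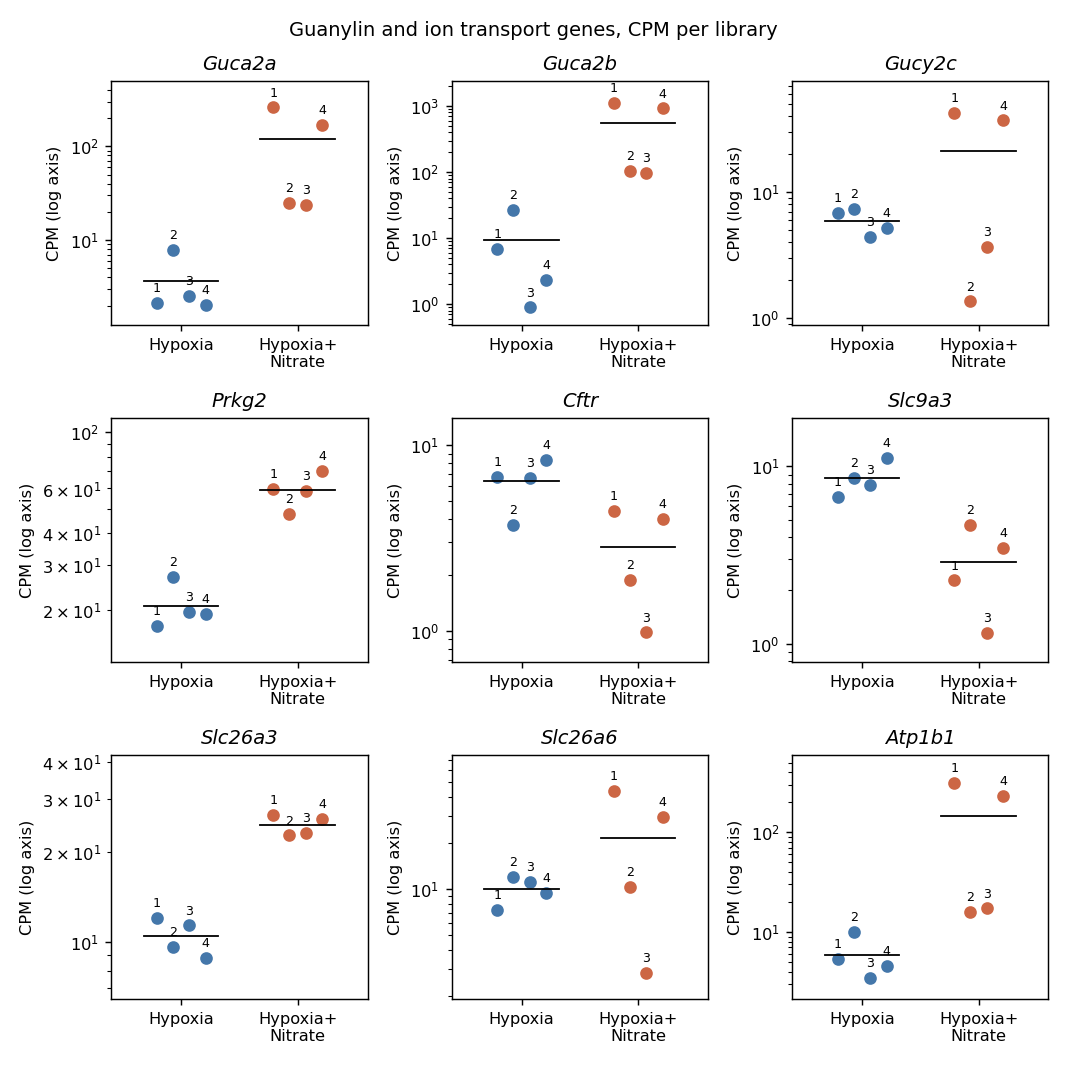
CPM of each gene in each library on log axes, with the replicate number above each point and a line at the group mean (4 libraries per group). Guca2a, Guca2b, Prkg2, Slc26a3 and Atp1b1 lie higher in all Hypoxia+Nitrate libraries, Slc9a3 lies lower, and Gucy2c, Cftr and Slc26a6 overlap.

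The peptides had the largest fold changes of the 9 genes in edgeR with TMM. Guca2a (ENSMUSG00000023247) lies on chromosome 4, 119637704 to 119639471 on the plus strand (GRCm38), with 594 bp of exon. Its counts were 32, 108, 48 and 34 for Hypoxia replicates 1 to 4 and 3662, 440, 437 and 3454 for the 4 Hypoxia+Nitrate replicates in the same order. In CPM these were 2.14, 7.86, 2.53 and 2.05, and 260, 25.0, 23.8 and 168. Every Hypoxia+Nitrate library stood above every Hypoxia library, and Hypoxia+Nitrate 1 and 4 stood well above 2 and 3. The mean rose from 3.64 ± 2.82 to 119 ± 116 CPM (SD, n = 4 per group; log2 fold change 5.03, SE 0.971, edgeR adjusted p = 0.00917).

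Guca2b (ENSMUSG00000032978) lies next to it on chromosome 4, 119656607 to 119658954 on the minus strand, with 870 bp of exon. The genes face each other with 17135 bp between their ends and 0 other genes of the files in the gap. Guca2b held 104, 368, 17 and 39 counts for Hypoxia replicates 1 to 4 and 15730, 1815, 1806 and 18860 for the 4 Hypoxia+Nitrate replicates in the same order, which is 6.94, 26.8, 0.896 and 2.35 CPM against 1117, 103, 98.3 and 920 CPM. The groups did not overlap, and Hypoxia+Nitrate 1 and 4 were again the highest. The mean rose from 9.24 ± 12.0 to 560 ± 536 CPM (SD, n = 4 per group; log2 fold change 5.92, SE 1.37, edgeR adjusted p = 0.0138).

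Both peptides were called higher also without the highest pair of libraries, but with smaller log2 fold changes than the 5.03 and 5.92 of all 8 libraries. Without Hypoxia+Nitrate 1 and 4, where 27.7% of all genes passed, the log2 fold change was 2.82 for Guca2a and 3.50 for Guca2b (edgeR adjusted p = 0.0155 and 0.0366). Scaled to nuclear protein-coding counts they were 3.36 (SE 0.687) and 4.24 (SE 1.10), with adjusted p = 0.0123 and 0.0263 in edgeR. The Guca2b call was lost without Hypoxia 1 or without Hypoxia 4. After the expected background was subtracted, limma-voom gave 3.46 and 6.30 with adjusted p = 0.105 and 0.0591.

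RefSeq promoter windows, the 250 bases before the RefSeq start on GRCm38.p6, were found for 7 of the 9 genes. Those of the 3 genes called higher under both scalings are shown. Capitals mark matches, on either strand, to AGATAA (the letters of a GATA factor site, which reads TTATCT on the other strand), GTTAAT (the core of an HNF1 site) or GCGTG (the core of one form of hypoxia response element).
Guca2a, chr4:119637482-119637731, plus strand: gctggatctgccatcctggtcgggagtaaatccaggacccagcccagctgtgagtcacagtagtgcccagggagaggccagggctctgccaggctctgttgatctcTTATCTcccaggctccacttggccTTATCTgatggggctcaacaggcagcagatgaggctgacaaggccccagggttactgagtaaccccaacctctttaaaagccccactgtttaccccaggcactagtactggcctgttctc
Guca2b, chr4:119658946-119659195, minus strand: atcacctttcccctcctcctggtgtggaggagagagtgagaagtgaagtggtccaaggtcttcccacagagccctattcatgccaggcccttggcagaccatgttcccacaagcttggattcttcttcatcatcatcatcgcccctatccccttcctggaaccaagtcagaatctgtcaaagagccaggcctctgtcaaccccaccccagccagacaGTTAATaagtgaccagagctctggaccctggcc
Atp1b1, chr1:164458356-164458605, minus strand: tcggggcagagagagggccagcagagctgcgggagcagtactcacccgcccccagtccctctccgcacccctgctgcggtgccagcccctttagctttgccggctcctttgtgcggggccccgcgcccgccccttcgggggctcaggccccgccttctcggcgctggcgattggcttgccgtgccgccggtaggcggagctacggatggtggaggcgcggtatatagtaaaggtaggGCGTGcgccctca

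The Guca2a window held AGATAA in 2 places, read as TTATCT, that begin 144 and 120 bases before the start. The Guca2b window held neither of these but GTTAAT, 33 bases before the start, although the genes are neighbours. The Atp1b1 window held GCGTG 13 bases before the start. Of 32851 windows of the same length in the table, 9.99% held AGATAA, 6.43% GTTAAT and 28.2% GCGTG on either strand. GTTAAT also stood in the Slc26a3 window, 94 and 84 bases before the start, and GCGTG in those of Cftr and Slc9a3. The searched letters AATAAA (the core of a CDX site, in 18.1% of windows) were matched in Slc26a6 alone, and ACGTG (the other form of the hypoxia response element, in 16.6%) in Slc9a3 alone, where its matches on the opposite strands overlap. GC content was 57.2% for Guca2a, 54.4% for Guca2b and 70.4% for Atp1b1, beside a median of 52.4%. A match is a run of letters and shows no binding.

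The receptor did not pass the test. Gucy2c (ENSMUSG00000042638) lies on chromosome 6, 136697284 to 136781765 on the minus strand, with 3959 bp of exon. It held 102, 101, 84 and 86 counts for Hypoxia replicates 1 to 4 and 601, 24, 68 and 761 for the 4 Hypoxia+Nitrate replicates in the same order, or 6.81, 7.35, 4.43 and 5.18 CPM and 42.7, 1.36, 3.70 and 37.1 CPM. Hypoxia+Nitrate 1 and 4 were above every Hypoxia library while 2 and 3 were below every one, so the groups overlapped and the Hypoxia+Nitrate libraries spanned 31.3-fold. The log2 fold change was 1.84 (SE 0.884, edgeR adjusted p = 0.141) with TMM, −0.060 with library size alone (adjusted p = 0.986), and −1.12 without Hypoxia+Nitrate 1 and 4 (adjusted p = 0.161).

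Prkg2, the kinase that cyclic GMP activates, was steadier. It is ENSMUSG00000029334 on chromosome 5, 98929773 to 99037351 on the minus strand, with 5369 bp of exon. Its counts were 260, 370, 373 and 320 for Hypoxia replicates 1 to 4 and 839, 837, 1078 and 1444 for the 4 Hypoxia+Nitrate replicates in the same order, which gave 17.4, 26.9, 19.7 and 19.3 CPM against 59.6, 47.6, 58.7 and 70.4 CPM. The groups did not overlap, and the 4 Hypoxia+Nitrate libraries spanned 1.48-fold, unlike those of Guca2a (10.9-fold) and Guca2b (11.4-fold). The mean rose from 20.8 ± 4.20 to 59.1 ± 9.34 CPM (SD, n = 4 per group; log2 fold change 1.51, SE 0.392, edgeR adjusted p = 0.0206). Scaled to nuclear protein-coding counts the groups overlapped, with 95.5 to 131 CPM for Hypoxia and 88.3 to 195 for Hypoxia+Nitrate, and the log2 fold change was 0.31 (SE 0.389, edgeR adjusted p = 0.540); with TMM the call was lost without Hypoxia 1, 3 or 4.

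The channel and the exchanger that the kinase acts on were low in every library, and neither passed the test. Cftr (ENSMUSG00000041301, chromosome 6, 18170687 to 18322768, plus strand; 7765 bp of exon, 98.3% of it free of other genes) held 101, 51, 127 and 139 counts for Hypoxia replicates 1 to 4 and 62, 33, 18 and 82 for the 4 Hypoxia+Nitrate replicates in the same order. In CPM it stood at 6.74, 3.71, 6.69 and 8.37 against 4.40, 1.88, 0.980 and 4.00. Hypoxia 2 was lower than Hypoxia+Nitrate 1 and 4, so the groups overlapped. The log2 fold change was −1.18 (SE 0.606, edgeR adjusted p = 0.164). It was −2.65 (adjusted p = 0.0121) when scaled to nuclear protein-coding counts, where the groups did not overlap, and −2.07 (adjusted p = 0.0257) without Hypoxia+Nitrate 1 and 4.

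Slc9a3 (ENSMUSG00000036123) lies on chromosome 13, 74121457 to 74169442 on the plus strand, with 5504 bp of exon. Its counts were 101, 119, 149 and 185 for Hypoxia replicates 1 to 4 and 32, 82, 21 and 71 for the 4 Hypoxia+Nitrate replicates in the same order, which is 6.74, 8.66, 7.85 and 11.1 CPM against 2.27, 4.66, 1.14 and 3.46 CPM. All 4 Hypoxia+Nitrate libraries were below all Hypoxia libraries. The means were 8.60 ± 1.87 and 2.89 ± 1.52 CPM (SD, n = 4 per group), and the log2 fold change of −1.57 (SE 0.531) missed the threshold with an edgeR adjusted p of 0.0520. Among 22 alternatives it was negative in all and passed in 9, among them RLE and upper-quartile scaling (26.1% and 23.3% of all genes passed there), DESeq2 (41.5%), limma-voom (44.6%) and the scaling to nuclear protein-coding counts (−2.69, adjusted p = 0.0187 in edgeR).

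The 2 chloride-bicarbonate exchangers differed in their spread. Slc26a3 (ENSMUSG00000001225, chromosome 12, 31390871 to 31473917, plus strand, 6369 bp of exon) held 180, 132, 215 and 146 counts for Hypoxia replicates 1 to 4 and 374, 399, 425 and 527 for the 4 Hypoxia+Nitrate replicates in the same order. Its CPM of 12.0, 9.60, 11.3 and 8.79 lay below the 26.6, 22.7, 23.1 and 25.7 of Hypoxia+Nitrate. The groups did not overlap and the Hypoxia+Nitrate libraries spanned 1.17-fold. The mean rose from 10.4 ± 1.49 to 24.5 ± 1.91 CPM (SD, n = 4 per group; log2 fold change 1.23, SE 0.347, edgeR adjusted p = 0.0273). The call ended with RLE, upper-quartile or library-size scaling and when any single Hypoxia library was left out. When scaled to nuclear protein-coding counts the log2 fold change was 0.04 (adjusted p = 0.939) with overlapping groups. On that scale the Hypoxia+Nitrate libraries stood at 39.4, 79.7, 76.8 and 33.2 CPM, so the narrow span was seen with TMM and not there.

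Slc26a6 (ENSMUSG00000023259, chromosome 9, 108853283 to 108913049, plus strand, 5411 bp of exon) held 110, 166, 211 and 156 counts for Hypoxia replicates 1 to 4 and 613, 181, 52 and 604 for the 4 Hypoxia+Nitrate replicates in the same order. In CPM these were 7.34, 12.1, 11.1 and 9.40, and 43.5, 10.3, 2.83 and 29.5. As with Gucy2c, Hypoxia+Nitrate 1 and 4 were high while 2 lay among the Hypoxia libraries and 3 below them. The log2 fold change was 1.11 (SE 0.680, edgeR adjusted p = 0.233). It turned to −0.49 when scaled to nuclear protein-coding counts, to −0.69 with library size alone and to −0.55 without Hypoxia+Nitrate 1 and 4.

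Slc26a3 made up 62.1%, 44.3%, 50.5% and 48.3% of the counts of the exchanger pair for Hypoxia replicates 1 to 4, and 37.9%, 68.8%, 89.1% and 46.6% for the Hypoxia+Nitrate replicates. The groups overlapped, and the difference of 9.30 percentage points had an exact permutation p of 0.543 (2-sided, 4 against 4). It was −0.201 points without Hypoxia+Nitrate 3.

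The sodium pump subunit also rose. Atp1b1 (ENSMUSG00000026576, chromosome 1, 164437109 to 164458355, minus strand) has 3081 bp of exon, of which 81.3% is free of other genes; the rest is shared with Nme7, and how reads there were assigned is not given. It held 80, 137, 65 and 75 counts for Hypoxia replicates 1 to 4 and 4448, 277, 316 and 4723 for the 4 Hypoxia+Nitrate replicates in the same order, or 5.34, 9.97, 3.43 and 4.52 CPM against 316, 15.7, 17.2 and 230 CPM. The groups did not overlap, with Hypoxia+Nitrate 1 and 4 again far above 2 and 3. The mean rose from 5.81 ± 2.88 to 145 ± 152 CPM (SD, n = 4 per group; log2 fold change 4.64, SE 1.05, edgeR adjusted p = 0.0126). It was 1.58 without Hypoxia+Nitrate 1 and 4 (adjusted p = 0.0329) and 2.86 when scaled to nuclear protein-coding counts (adjusted p = 0.0275), and the call was lost with library size alone (2.83, adjusted p = 0.0991) and without Hypoxia 1.

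The estimated background sets how far these counts can be read. The ratio of a gene's count to the background expected for its length was compared with the 97.5th percentile of the same ratio over the receptor genes, which was 2.88 to 3.17 in the Hypoxia libraries and 6.43 to 9.34 in the Hypoxia+Nitrate libraries. The median receptor ratio was 0.917 to 1.02 in Hypoxia and 0, 0.420, 0.0814 and 0 in Hypoxia+Nitrate, where 31.2% to 82.4% of the receptor genes had a count, against 99.0% to 99.6% in Hypoxia. The expected background of a Hypoxia+Nitrate library is therefore a mean carried by part of the receptor genes. Guca2a stood above this level in all 8 libraries, at 2.97, 15.1, 3.90 and 3.35 times the expected background in Hypoxia and 58.5 to 2082 times in Hypoxia+Nitrate. Guca2b did so in Hypoxia 1 and 2 (6.60 and 35.2 times) and in all 4 Hypoxia+Nitrate libraries (165 to 6105 times), and was at 0.944 and 2.63 times in Hypoxia 3 and 4. Prkg2 did so in 3 Hypoxia and 4 Hypoxia+Nitrate libraries, and Atp1b1 in 1 and 4.

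The other 5 genes did not exceed the receptor level in any Hypoxia library. Gucy2c ran from 1.02 to 2.12 times the expected background there, Slc26a3 from 1.34 to 1.73 and Slc26a6 from 1.12 to 2.56. Each of the 3 exceeded the receptor level only in Hypoxia+Nitrate 1 and 4, where Gucy2c reached 51.3 and 40.4 times. Cftr and Slc9a3 exceeded it in none of the 8 libraries, with ratios of 0.199 to 2.74 for Cftr and 0.322 to 2.71 for Slc9a3. Their lower CPM in Hypoxia+Nitrate is thus a difference between counts that could not be set apart from those of the receptor genes at this depth.

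**Figure D2:**
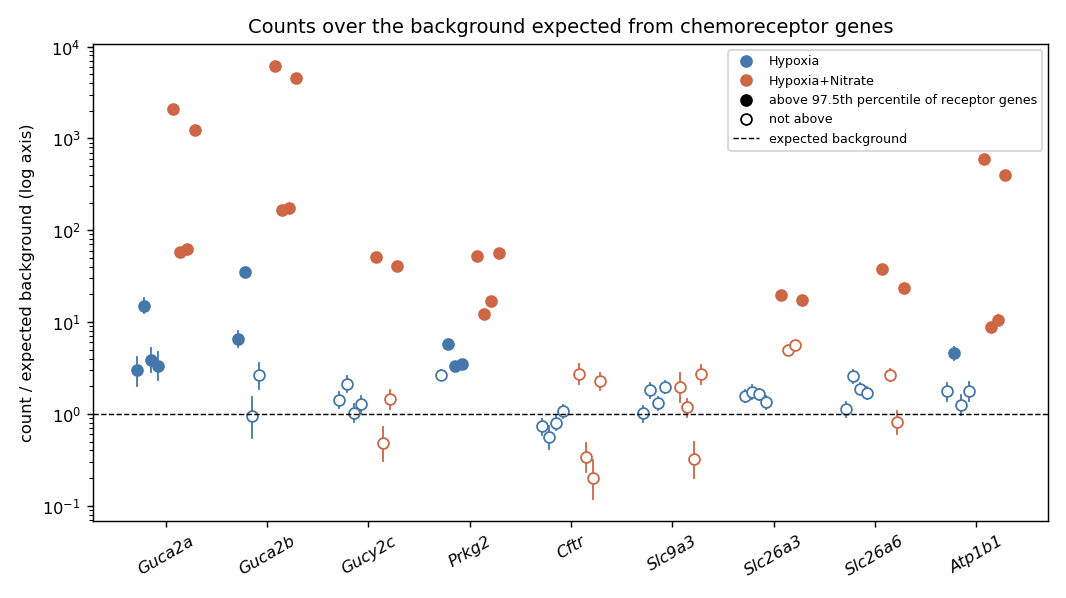
Count of each gene in each library divided by the background expected for its exonic length (log axis; bars are 95% Poisson intervals of the count, which cover counting error only). Filled points exceed the 97.5th percentile of 1469 receptor genes in the same library: all 8 for Guca2a, none for Cftr and Slc9a3. The Guca2a intervals in Hypoxia 1, 3 and 4 reach below that percentile.

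Relative to epithelial markers, Guca2b was the one gene of the 9 that was higher without overlap. Per 1000 counts of the 8 epithelial markers in the same library, a ratio that no scaling between libraries alters, Guca2b was at 78.8, 124, 22.5 and 59.9 for Hypoxia replicates 1 to 4 and at 170, 186, 248 and 133 for the 4 Hypoxia+Nitrate replicates in the same order. All Hypoxia+Nitrate libraries were above all Hypoxia libraries. They were so too after subtraction of the expected background, by 133 in Hypoxia+Nitrate 4 against 130 in Hypoxia 2. The subtraction left Guca2b at 0 in Hypoxia 3, and its counts in Hypoxia 3 and 4 did not exceed the receptor level. Of the 35431 genes tested, 12 (0.0339%) were higher without overlap on this ratio and 71.7% lower without overlap. With the 8 enterocyte markers in place of the epithelial ones, Guca2b overlapped between the groups, from 17.5 to 52.1 and from 28.6 to 129 per 1000; 0.00564% of genes were higher without overlap there.

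Guca2a, by contrast, ran from 24.2 to 63.6 per 1000 epithelial marker counts in Hypoxia and from 24.3 to 60.0 in Hypoxia+Nitrate. Atp1b1 ran from 46.2 to 115 and from 28.4 to 48.2, Prkg2 from 125 to 494 and from 9.09 to 148, and Slc26a3 from 44.5 to 285 and from 3.71 to 58.3. These 4 overlapped between the groups. Gucy2c (34.1 to 132 and 2.46 to 9.33), Cftr, Slc9a3 and Slc26a6 were lower in Hypoxia+Nitrate without overlap, as were 71.7% of all genes tested. After subtraction of the expected background Slc9a3 and Slc26a6 were still so, but only by a near tie of Hypoxia 1 with Hypoxia+Nitrate 2. These libraries stood at 1.301 and 1.291 per 1000 for Slc9a3 and at 11.86 and 11.81 for Slc26a6. The share of all genes that are lower without overlap after subtraction is not given here. The 9 genes together had a log2 ratio to the markers of −0.30, −0.93, 0.77 and 0.86 for Hypoxia replicates 1 to 4 and of −1.81, −1.25, −0.79 and −2.22 for the Hypoxia+Nitrate replicates, which overlapped between Hypoxia 2 and Hypoxia+Nitrate 3. Their summed counts were only 1.55 to 3.38 times the expected background in Hypoxia, against 8.45 to 233 times in Hypoxia+Nitrate. The part of the background in this ratio was not tested.

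**Figure D3:**
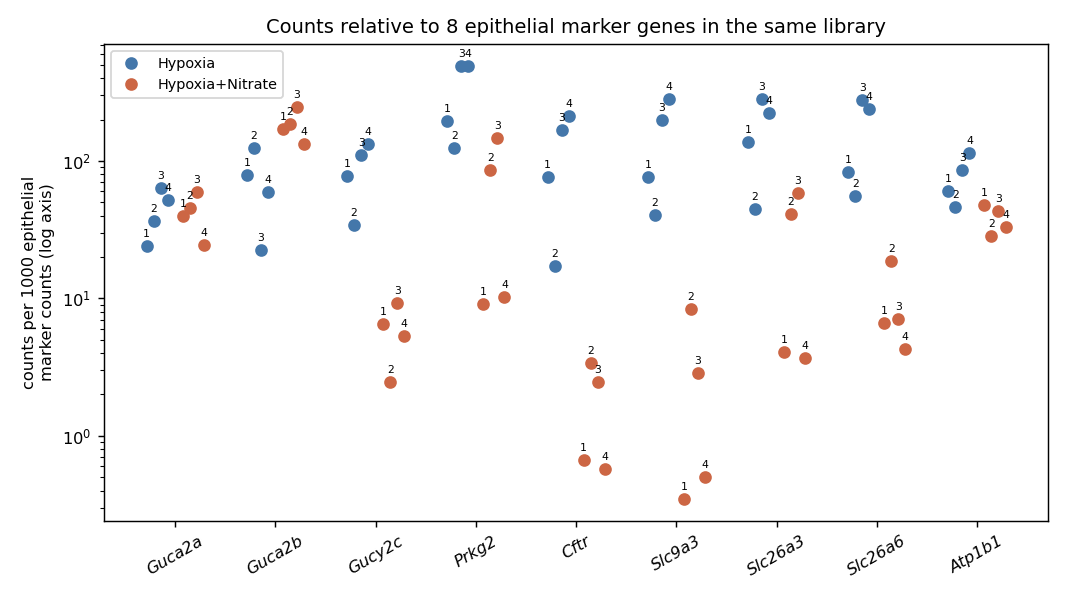
Counts of each gene per 1000 counts of 8 epithelial marker genes in the same library (log axis; numbers are replicates). Guca2b is higher in all 4 Hypoxia+Nitrate libraries, at 133 to 248 against 22.5 to 124, Guca2a overlaps, and Gucy2c, Cftr, Slc9a3 and Slc26a6 are lower. Of all genes tested, 0.0339% were higher and 71.7% lower without overlap on this ratio.

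The balance between the peptides differed. Guca2a made up 18.9%, 19.5%, 19.5% and 15.5% of the counts of the peptide pair across Hypoxia+Nitrate replicates 1 to 4, with 95% Clopper-Pearson intervals no wider than 17.9% to 21.2% and 2243 to 22314 counts of the pair. In Hypoxia 1 to 4 it made up 23.5% (16.7% to 31.6%), 22.7% (19.0% to 26.7%), 73.8% (61.5% to 84.0%) and 46.6% (34.8% to 58.6%), of 136, 476, 65 and 73 counts. The shares of Hypoxia 3 and 4 were far from those of Hypoxia 1 and 2, which lay close to Hypoxia+Nitrate. The group means were 41.7% and 18.3%, and the difference of −23.3 percentage points had an exact permutation p of 0.0286 (2-sided), the smallest that 4 against 4 libraries can give.

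The background alone would give Guca2a 40.6% of the pair's counts, from exon lengths. With the expected background subtracted, which set Guca2b to 0 and the share to 100% in Hypoxia 3, the difference was −29.5 points; its lack of overlap then rested on 19.4% in Hypoxia 1 against 19.3% in Hypoxia+Nitrate 2. Unsubtracted it was −12.6 points without Hypoxia 3. Guca2b was at 0.944 and Guca2a at 3.90 times the background in Hypoxia 3, the library with the highest Guca2a share, and Guca2b did not exceed the receptor level in Hypoxia 4 either. The intervals cover counting error only.

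**Figure D4:**
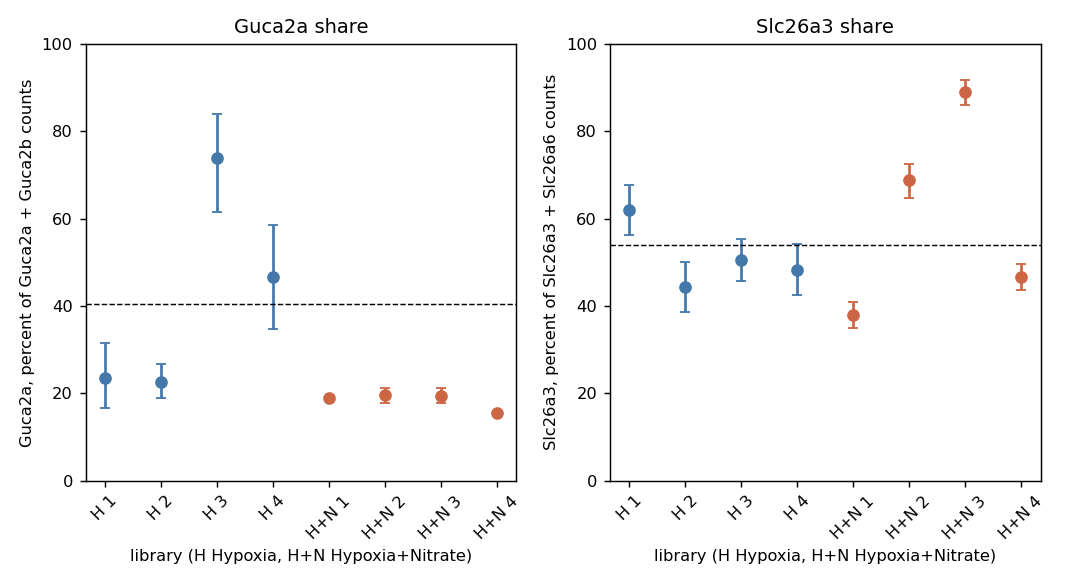
Guca2a as a percentage of Guca2a plus Guca2b counts (left) and Slc26a3 as a percentage of Slc26a3 plus Slc26a6 counts (right) in each library, with 95% Clopper-Pearson intervals; dashed lines mark the shares that the background alone would give. Guca2a lies between 15.5% and 19.5% in Hypoxia+Nitrate and between 22.7% and 73.8% in Hypoxia, while the exchanger shares overlap.

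Per kb of exon, the mean levels in Hypoxia+Nitrate fell in the order Guca2b (643 ± 616 CPM per kb, SD, n = 4), Guca2a (201 ± 195), Atp1b1 (47.0 ± 49.4), Prkg2 (11.0 ± 1.74), Gucy2c (5.36 ± 5.49), Slc26a6 (3.98 ± 3.41), Slc26a3 (3.85 ± 0.299), Slc9a3 (0.524 ± 0.276) and Cftr (0.363 ± 0.213). The steps from Guca2b to Guca2a, Guca2a to Atp1b1, Prkg2 to Gucy2c and Slc26a3 to Slc9a3 held within each of the 4 libraries. Atp1b1 was above Prkg2 in 2 of 4, Gucy2c above Slc26a6 in 3, Slc26a6 above Slc26a3 in 2 and Slc9a3 above Cftr in 3, so these neighbours did not differ beyond their spread. In Hypoxia the means ran only from 0.822 CPM per kb for Cftr to 10.6 for Guca2b, and Guca2b was above Guca2a in 2 of 4 libraries. The peptide transcripts were thus far more abundant than that of their receptor in Hypoxia+Nitrate, on the scale per length.

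Over the 8 libraries, with group means subtracted, log2 CPM of Guca2a had a Pearson r of 0.963 with Atp1b1, 0.891 with Gucy2c, 0.859 with Guca2b, 0.859 with Slc26a6, 0.707 with Prkg2, 0.548 with Cftr, 0.315 with Slc26a3 and 0.128 with Slc9a3. Gucy2c had an r of 0.966 with Atp1b1. The 5 of 14958 protein-coding genes most like Guca2a were Ssr2, Ifrd1, Fcgbp, Prkcsh and Muc13 (r from 0.988 to 0.994). Among those most like Guca2b were Rpl6, Pdha1, Krt8 and Bri3 (0.988 to 0.989), and those most like Gucy2c were Zfand2b, Cog1, Unc119b, Fhl2 and Ptprh (0.995 to 0.997). These are descriptions over libraries that share their scaling, depth and epithelial content.

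**Figure D5:**
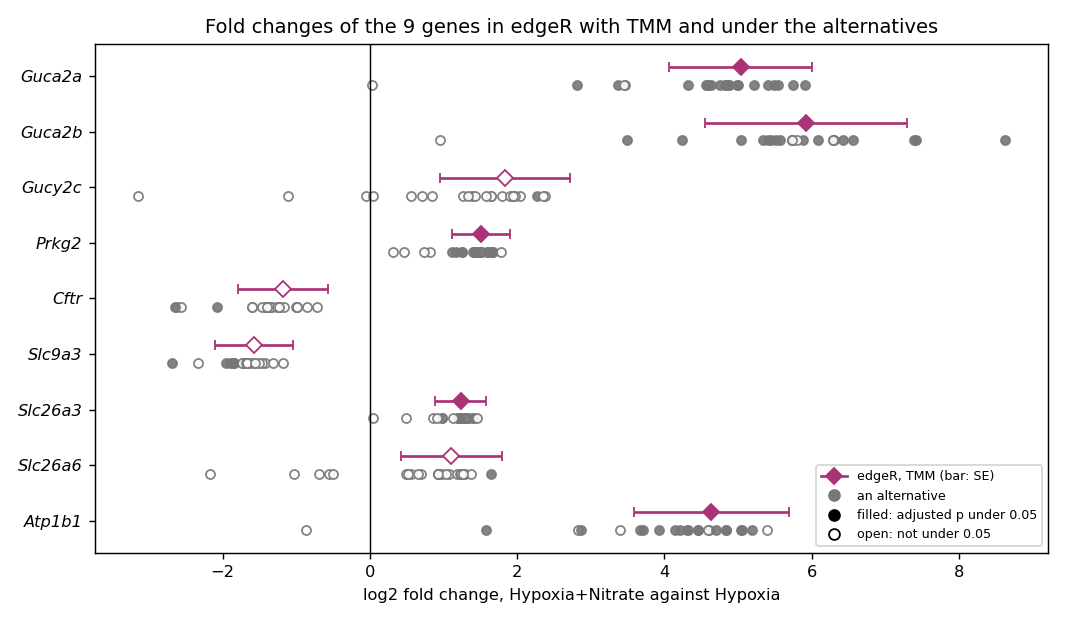
Log2 fold change of each gene, Hypoxia+Nitrate against Hypoxia, in edgeR with TMM scaling (diamonds, bars are SE) and under 23 alternatives in scaling, filter, test or samples (circles; 22 for Cftr and Slc9a3). Filled symbols have an adjusted p under 0.05. Guca2a and Guca2b are positive throughout but reach down to 0.034 and 0.95 with the background share as a covariate. Atp1b1 is below 0 only with that covariate (−0.86), and Gucy2c and Slc26a6 lie on both sides of 0.

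The number of the 9 genes that passed varied with the scaling, the test and the libraries, and is given with the share of the genes tested there that passed. It was 2 with library size alone, where 5.08% of all genes passed, and 7 without Hypoxia+Nitrate 2, where 53.8% passed. Guca2a was the only one of the 9 called without Hypoxia 1 (5.56% of all genes), and 3 and 2 were called without Hypoxia 3 or 4 (11.1% and 11.5%). Without Hypoxia 1 and 2 the count was 2 (10.3%), without Hypoxia+Nitrate 1 and 4 it was 6 (27.7%), and with the replicate number as a block 3 (13.5%). With the background share of nuclear protein-coding counts as a covariate in edgeR 0 of the 9 passed (0% of all genes, and 0 of the 9 at an unadjusted p under 0.05). In that fit the log2 fold change of Guca2a was 0.034 (SE 1.35, adjusted p = 0.997) and that of Guca2b 0.95 (SE 2.15, adjusted p = 0.956). The share does not overlap between the groups, and other definitions of it were not tried. After subtraction of the background 0 of the 7 members still tested passed in limma-voom, 2 of them with an unadjusted p under 0.05, where 13.5% of 14972 genes passed. Guca2a was called in 21 of 23 alternatives, Guca2b in 19, Atp1b1 in 18, Prkg2 in 14 and Slc26a3 in 10.

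Of 77 other genes in 9 lists of cyclic GMP and ion transport, 76 were tested, 20 passed as higher, 6 as lower and 50 did not pass; Car1 was not tested. Their median log2 fold change was 0.62. Over all genes tested 11.7% were higher and 12.7% lower, the shares against which each list's count below is to be read. The split was 11 higher and 12 lower when libraries were scaled to nuclear protein-coding counts, where 1043 of 20463 protein-coding genes were higher and 4000 lower, so the directions depend on the scaling.

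Among 13 genes that make, break or answer cyclic GMP, 2 were higher and 1 lower, near the shares of all genes (11.7% and 12.7%), with a median of −0.36. Vasp, an actin regulator phosphorylated by cyclic nucleotide kinases, rose from 9.39 ± 3.92 to 126 ± 104 CPM (SD, n = 4 per group; log2 fold change 3.74, edgeR adjusted p = 0.00921). Pde9a, a phosphodiesterase that degrades cyclic GMP, rose by 4.32 (SE 0.866, edgeR adjusted p = 0.00923), from 0.877 to 41.8 times the expected background. Such group ratios, here and below, are the summed counts of the group's libraries over their summed background. In Hypoxia+Nitrate Pde9a ran from 9.80 to 126 CPM. Pde10a, a phosphodiesterase of both cyclic nucleotides, fell by 2.23 (adjusted p = 0.0482, edgeR), and was at 0.852 and 0.437 times the background in the groups. Prkg1, the kinase of the same family that is prominent in smooth muscle, had a log2 fold change of −1.30 (adjusted p = 0.0521, edgeR), opposite in sign to Prkg2, at 1.21 and 1.13 times the background.

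Apical scaffolds and regulators, which hold or tune NHE3 and CFTR at the brush border, had 9 of 14 genes higher and 0 lower in edgeR (0 lower also at an unadjusted p under 0.05), with a median of 2.59. The 9 were Slc9a3r1, Pdzk1, Ezr, Ahcyl1, Sgk1, Oxsr1, Nedd4l, Chp1 and Prkaca. Prkaca, a catalytic subunit of protein kinase A, rose from 6.50 ± 1.99 to 39.1 ± 15.9 CPM (SD, n = 4 per group; log2 fold change 2.59, SE 0.462, edgeR adjusted p = 0.00917). Slc9a3 itself, the exchanger that several of these proteins bind, had the opposite sign (−1.57) but did not pass (edgeR adjusted p = 0.0520). It was at 1.48 and 1.16 times the background in the groups and exceeded the receptor level in none of the 8 libraries.

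Of 6 other sodium entry genes 0 were higher in edgeR (1 at an unadjusted p under 0.05) and 1 was lower: Scnn1g, the gamma subunit of the epithelial sodium channel, fell by 3.18 (SE 0.798, edgeR adjusted p = 0.0180), from 1.39 to 0.332 times the background. Of 12 other chloride and bicarbonate genes, Clca4a and Clca4b were higher and 0 lower (0 at an unadjusted p under 0.05). Clca4b rose by 4.63 (SE 1.08, edgeR adjusted p = 0.0141), from 8.28 ± 1.28 to 206 ± 252 CPM (SD, n = 4 per group). Of 5 potassium channel genes 0 passed in edgeR in either direction, and 0 had an unadjusted p under 0.05.

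Of 8 other sodium or proton pump subunits 2 were higher and 1 lower, beside 11.7% and 12.7% of all genes. Among the higher ones Atp1b3, another beta subunit, rose by 1.48 (SE 0.453, edgeR adjusted p = 0.0371). Atp12a, the alpha subunit of the non-gastric proton-potassium pump, fell by 3.24 (SE 1.05, edgeR adjusted p = 0.0459), from 1.48 to 0.359 times the background.

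Carbonic anhydrases, which supply bicarbonate and protons to the exchangers, had 2 of 5 tested genes higher, Car4 and Car13. Car13 rose by 4.71 (SE 0.936, edgeR adjusted p = 0.00921), from 1.11 to 69.0 times the background. Its Hypoxia+Nitrate libraries ran from 6.75 to 150 CPM. Aquaporins had 2 of 6 higher, Aqp1 and Aqp7, and 1 lower. Aqp1 rose by 3.68 (SE 0.905, edgeR adjusted p = 0.0167) and Aqp4 fell by 1.42 (SE 0.439, adjusted p = 0.0379), the latter at 1.60 and 1.38 times the background.

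Receptors for other secretagogues had 1 of 7 higher and 2 lower, beside the same shares of all genes. Vipr1, a receptor for vasoactive intestinal peptide, rose by 2.27 (SE 0.655, edgeR adjusted p = 0.0300), though by 0.65 (adjusted p = 0.240) when scaled to nuclear protein-coding counts. Chrm3, a muscarinic receptor, was called lower at 1.36 and 0.898 times the background. Sctr, the secretin receptor, stood at 3.33 ± 0.870 CPM (SD, n = 4), or 1.60 times the background, in Hypoxia and had 0 counts in all 4 Hypoxia+Nitrate libraries. Against a floor of 3 counts per library it was at least 19.2-fold lower (edgeR adjusted p = 0.00917). Its group ratio in Hypoxia, like those of Pde10a, Scnn1g, Atp12a, Aqp4 and Chrm3, was below the receptor level of 2.88 to 3.17 in those libraries. The median receptor ratio was itself 0.917 to 1.02 in Hypoxia and 0 to 0.420 in Hypoxia+Nitrate. The part of the background in the lower values of these genes was not tested.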

How the data were processed

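RNA of 8 small intestine samples was isolated with TRIzol, per the labels' protocols, which name islets at that step although the tissue is small intestine; libraries were made with a stranded kit. HISAT, featureCounts (1.5.0-p3) and DESeq (1.8.3) with build GRCm38 are named, per the submitters' processing notes. For the counting, annotation, strand and overlap settings, like the HISAT version, were not given in the sources used here. Raw whole-number counts per gene were deposited by the authors, as a joint table and as 8 single-sample tables with identical values. Of 55421 gene IDs, 55240 matched GENCODE M21, which gave coordinates and exon lengths.

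Group and replicate came from the sample titles. In R 4.3.3, edgeR 4.0.16 (filterByExpr with minimum count 10 and minimum total 15, TMM, quasi-likelihood test, Benjamini-Hochberg adjustment over all 35431 genes at 0.05) compared Hypoxia+Nitrate with Hypoxia; SE came from the fold change and its F statistic. CPM used TMM-scaled library sizes, with factors from 0.633 to 3.69 in Hypoxia and from 0.220 to 2.13 in Hypoxia+Nitrate. Alternatives used DESeq2 1.42.0, limma 3.58.1, other scalings, filters and sample sets. The expected background of a gene was the receptor genes' counts per kb times its exon length free of other genes (0.5 of it on X and Y); that receptor genes are silent in gut was assumed. The members and lists were chosen with earlier results of these data known. Named were the 9 members, the called gene with the lowest p in each direction per list, and the 5 genes most like Guca2a, Guca2b and Gucy2c (mean log2 CPM at least 1, prior count 2); values of Pde9a, Prkg1, Atp1b3 and Chrm3, and the other symbols in short counts, were added after their values were seen. Some genes that this rule names are not reported here. The scripts were tested on simulated data. Promoter sequences are RefSeq's.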

Additional observations from a re-analysis of the deposited data

Results flagged for a closer look

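Within a group of 4 libraries, a value was singled out where its gap to the nearest other took up more of the group's range than Dixon's 95% critical value allows; 24 groups were examined, and chance marks about 1 in 20. Guca2a in Hypoxia 2 was at 7.86 CPM while the other Hypoxia libraries were at 2.05 to 2.53, a gap of 0.917 of the range. Hypoxia 2 was also the Hypoxia library with the highest summed epithelial markers, at 216 CPM; the part of this in the result was not tested. The Guca2a share of the peptide pair in Hypoxia+Nitrate 4 was 15.5% while the others were at 18.9% to 19.5%, a gap of 0.844 of the range. That share rests on 22314 counts, and its 95% interval did not overlap theirs.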

How the results depend on the processing

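Of the 9 genes, 5 passed in edgeR with TMM; 2 passed with library size alone, 3 with the replicate block, 2 without Hypoxia 1 and 2, and from 1 (without Hypoxia 1) to 7 (without Hypoxia+Nitrate 2) when single libraries were left out, with 2 without Hypoxia 4 and 3 without Hypoxia 3. With the background share of nuclear protein-coding counts as a covariate (other definitions of the share were not tried), 0 of 35431 genes passed in edgeR (2649 at an unadjusted p under 0.05, 0 of them among the 9). After background subtraction 0 of 7 passed in limma-voom (2 at an unadjusted p under 0.05), since Cftr and Slc9a3 fell below the filter. Of the 76 list genes, 26 passed, but 6 with library size alone, 9 with the replicate block, 0 with the covariate in edgeR (1 at an unadjusted p under 0.05), 1 without Hypoxia 1 and 2, 4 after background subtraction, and 5 to 37 with single libraries left out (5 without Hypoxia 1, 6 without Hypoxia 3, 7 without Hypoxia 4). These list counts are to be read beside the shares of all genes, which changed too. Among all genes tested 24.4% passed with TMM, 5.08% with library size alone and 13.5% with the block. The share was 10.3% with both Hypoxia 1 and 2 dropped, and 13.5% after background subtraction. Dropping Hypoxia 1 gave 5.56%, Hypoxia 3 11.1%, Hypoxia 4 11.5% and Hypoxia+Nitrate 2 53.8%. Same-numbered samples correlated at 0.0506, −0.182, 0.184 and −0.0503 in log2 CPM with group means subtracted. Differently numbered samples ran from −0.162 to 0.173. Such values cannot decide whether the numbers pair the samples, which the labels do not say.

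Scaling shifted every gene: over all genes the median was −0.58 for TMM, −0.87 for RLE, −0.94 for the upper quartile and −1.07 for unadjusted library sizes (log2). Signs turned for Gucy2c (−0.060 with library size alone, −3.15 with the covariate, −1.12 without Hypoxia+Nitrate 1 and 4) and Slc26a6 (−0.69, −2.18 and −0.55 in the same order, −0.49 scaled to nuclear protein-coding counts, −1.03 after subtraction). With the covariate they also turned for Atp1b1 (−0.86), Vasp (−0.16), Clca4b (−0.92), Atp12a (0.063), Aqp1 (−0.87) and Vipr1 (−1.05); the cause was not tested. The log2 ratio of the 9 genes to epithelial markers differed by −1.62, and by −2.53 as a mean of log2 counts plus 0.5. The Guca2a share difference, −29.6 to −12.6 points with single libraries left out, −22.2 without Hypoxia+Nitrate 1 and 4 and −41.9 without Hypoxia 1 and 2, kept its sign, but these smaller designs cannot pass 0.05. The Slc26a3 share difference ran from −0.201 to 16.9 points. Low counts limit what can be read: Cftr had 18 to 139 and Slc9a3 21 to 185 per library.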
